A study of Mus musculus with 4 samples.

Results

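The 9 genes followed were Lef1, Sox4, Myb, Erg, Runx1, Bcl11a, Lmo2, Meis1 and Hoxa9. They encode DNA-binding factors, or in the case of Lmo2 an adaptor of such factors, of blood and lymphoid progenitors. They were chosen by symbol, and all 9 were found among the 55573 mouse gene identifiers measured. The libraries came from bone marrow cells sorted as Fr.C+C' (in the Hardy scheme, the end of the pro-B stage and the start of the pre-B stage) of C57BL/6 mice 8 to 12 weeks old. There were 2 libraries from mice labelled ADAR1 KO (KO 1, KO 2) and 2 from wild type mice (WT 1, WT 2). ADAR1, the product of Adar, edits adenosine to inosine in double-stranded RNA. The labels name no promoter, Cre driver or exon for the knockout and do not say whether a library is 1 mouse or a pool. P-values therefore rest on library-to-library spread alone, and that spread may be technical.

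These factors act before and during commitment to the B lineage. In mice, ERG, RUNX1, LMO2, MEIS1 and HOXA9 act in stem cells or early progenitors, and MYB, SOX4, LEF1 and BCL11A are needed for B cell precursors to form or to persist in normal numbers. These roles are not exclusive, as ERG also acts in early B cells. Several of them are also expressed outside the B lineage: Lmo2 in erythroid and myeloid precursors, Erg in endothelium and megakaryocytes, and Lef1 and Myb in T cell precursors.

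Each library held between 15111884 and 16405960 fragments assigned to genes. The whole-gene Adar level did not check the label, at 15.19 and 16.79 FPKM (fragments per kilobase of exon, scaled to the depth of the library) in KO libraries, against 15.04 and 14.62 FPKM in WT libraries, since a total over all exons cannot show the loss of some of them. Directions below are those of the libraries labelled KO. The 17 B-lineage genes listed were all tested and summed to 3202 and 1700 FPKM in KO libraries, against 4017 and 4491 FPKM in WT libraries, but the most abundant transcript in every library was S100a9, a neutrophil gene. The list of 20 neutrophil markers took 3.83% and 7.61% of fragments in KO 1 and KO 2, against 2.87% and 2.69% in WT 1 and WT 2. KO 2 lay farthest from the WT libraries. The SD across 13281 genes of its log2 difference was 0.651 from WT 1 and 0.672 from WT 2, against 0.484 and 0.465 for KO 1. The same SD was 0.487 between KO 1 and KO 2, and 0.322 between WT 1 and WT 2. In bulk RNA, fewer cells of a type and less RNA per cell cannot be told apart, and this holds for every value below.

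The sequences before the transcription starts of Erg, Myb and Sox4 are shown because Erg and Myb were the tested factors whose KO and WT libraries did not overlap, and Sox4 differed most between KO 1 and KO 2. Each is the 250 bases upstream of a RefSeq start on GRCm38.p6, written 5′ to 3′ on the gene's strand, here the minus strand throughout. Capitals mark matches on either strand to 4 motifs. ETS factors such as ERG bind around GGAAG, factors of the GATA family prefer AGATAA, TAL1, LYL1 and E proteins bind the E-box CANNTG, and RUNX factors prefer TGTGGT. In the windows printed, no match overlapped another. Erg has 3 RefSeq starts on chromosome 16, at chr16:95586594-95586843, chr16:95530366-95530615 and chr16:95459349-95459598, Myb has 1 at chr10:21160985-21161234, and Sox4 has 1 at chr13:28953700-28953949.
Erg start 1: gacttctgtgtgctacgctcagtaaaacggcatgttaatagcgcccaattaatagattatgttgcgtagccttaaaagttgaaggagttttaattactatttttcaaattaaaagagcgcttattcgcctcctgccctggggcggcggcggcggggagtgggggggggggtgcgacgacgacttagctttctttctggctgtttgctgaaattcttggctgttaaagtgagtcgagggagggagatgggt
Erg start 2: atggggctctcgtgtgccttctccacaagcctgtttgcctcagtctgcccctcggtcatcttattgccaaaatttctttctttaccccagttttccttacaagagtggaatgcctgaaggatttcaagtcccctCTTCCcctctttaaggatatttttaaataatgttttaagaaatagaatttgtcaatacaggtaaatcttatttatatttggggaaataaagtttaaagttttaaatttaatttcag
Erg start 3: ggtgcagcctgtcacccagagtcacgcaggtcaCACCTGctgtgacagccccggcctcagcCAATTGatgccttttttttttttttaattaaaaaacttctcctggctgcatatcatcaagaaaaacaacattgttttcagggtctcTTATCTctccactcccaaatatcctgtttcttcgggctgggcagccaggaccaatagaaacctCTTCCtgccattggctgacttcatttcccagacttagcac
Myb: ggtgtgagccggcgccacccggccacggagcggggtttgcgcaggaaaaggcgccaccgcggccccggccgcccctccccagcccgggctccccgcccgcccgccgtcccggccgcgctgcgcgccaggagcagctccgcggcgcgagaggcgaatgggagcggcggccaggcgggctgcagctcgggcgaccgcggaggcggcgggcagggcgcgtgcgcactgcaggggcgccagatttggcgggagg
Sox4: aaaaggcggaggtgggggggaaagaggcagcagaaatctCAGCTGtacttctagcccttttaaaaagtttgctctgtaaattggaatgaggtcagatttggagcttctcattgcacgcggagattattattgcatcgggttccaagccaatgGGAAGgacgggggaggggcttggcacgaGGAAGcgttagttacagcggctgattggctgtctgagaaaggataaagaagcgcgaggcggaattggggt

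The windows differed in base composition. GC content was 48.8%, 36.0% and 47.2% at the 3 Erg starts, 50.8% at Sox4 and 81.2% at Myb, where the median of 32851 mouse promoter windows was 52.4%. The third Erg window held 1 ETS, 1 GATA and 2 E-box matches, the second held 1 ETS match, and the first held no match to these letters. The Sox4 window held 2 ETS matches and 1 E-box, and the Myb window, with 40 CpG dinucleotides, held no match. Among all windows, 64.1% held the ETS letters, 66.2% the E-box, 14.0% the RUNX letters and 9.99% the GATA letters. A match is a string of letters and not a measured site. The values per gene sum all starts, so they do not show which start was used.

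Of the 9 factors, 7 were well expressed, and 2 were near the floor. In WT libraries the highest mean was that of Myb (80.1 FPKM), followed by Lmo2 (40.8 FPKM), Sox4 (33.3 FPKM), Erg (28.3 FPKM), Lef1 (15.6 FPKM), Bcl11a (10.5 FPKM) and Runx1 (10.3 FPKM). The order of Lmo2 and Sox4 was not the same in WT 1 and WT 2, nor was that of Bcl11a and Runx1, so these neighbours do not differ beyond the spread between libraries. Myb was first in KO 1, WT 1 and WT 2, and second to Lmo2 in KO 2. Meis1 and Hoxa9 were below 1 FPKM in all 4 libraries. FPKM is per length, so levels can be compared between genes, but only roughly. The length counts all annotated exons of a gene, used or not.

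**Figure D1:**
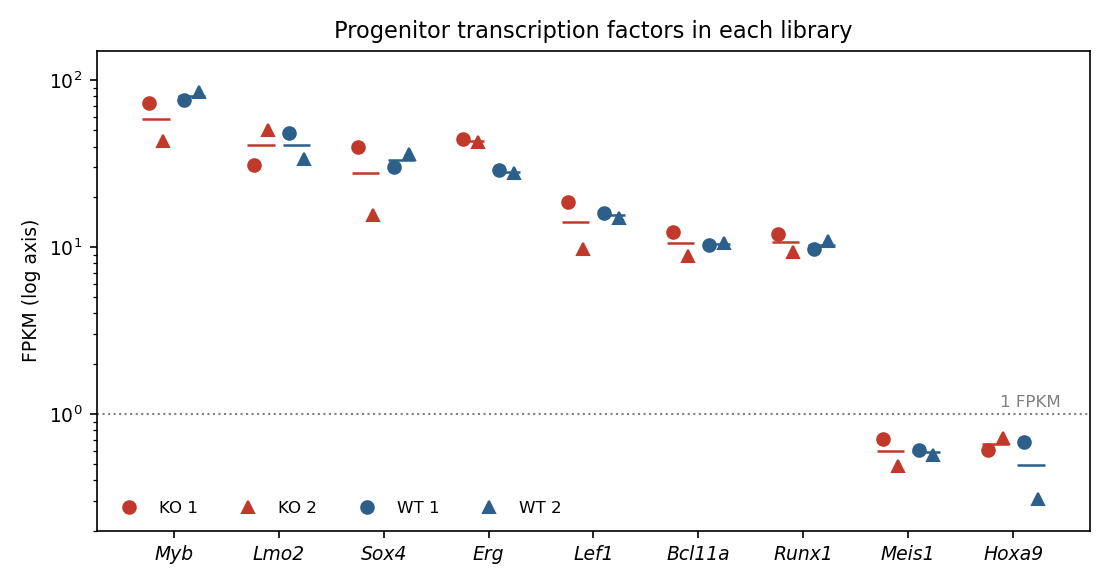
FPKM of the 9 factors on a log axis, in KO 1 and KO 2 (red) and WT 1 and WT 2 (blue), with short lines at group means and a dotted line at 1 FPKM. Erg is the factor with both KO libraries above both WT libraries, at 44.13 and 42.73 FPKM against 28.79 and 27.77 FPKM, and Meis1 and Hoxa9 lie below 1 FPKM.

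The comparison asks whether levels of these factors differ between sorted cells of mice labelled as lacking ADAR1 and wild type cells. None of the 7 factors tested passed the threshold, which was an adjusted p under 0.05 in limma on log2(FPKM + 1), adjusted over all 13281 genes that averaged 1 FPKM or more in KO or in WT. At an unadjusted p under 0.05 there was 1 factor, Erg, and voom on estimated fragments also passed 0 of the 7. Of all genes tested, 0.203% passed the adjusted threshold, none of them higher in KO, and 12.5% had an unadjusted p under 0.05. The KO and WT libraries did not overlap for 2 of the 7 factors (1 above, Erg, and 1 below, Myb), against 51.4% of all genes (19.7% above and 31.7% below). The median log2 change of the 7 was -0.02, against -0.09 for all genes tested, and 5 of the 7 changes were below 0, against 61.7% of all genes.

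**Figure D2:**
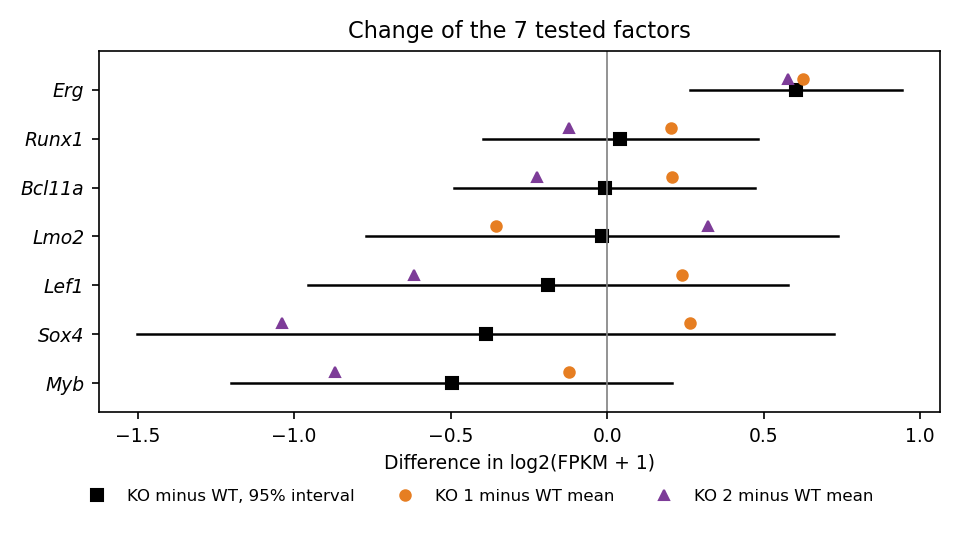
Difference in log2(FPKM + 1) of the 7 tested factors, KO minus WT with its 95% interval from limma (squares), and each KO library minus the WT mean (circles for KO 1, triangles for KO 2). The Erg interval runs from 0.26 to 0.94, the other intervals include 0, and for 5 factors KO 1 and KO 2 fall on opposite sides of 0.

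Erg, an ETS factor of stem cells that in mice also acts in early B cells, was higher in both KO libraries by nearly the same amount. It stood at 44.13 and 42.73 FPKM in KO 1 and KO 2, against 28.79 and 27.77 FPKM in WT 1 and WT 2. The groups were far apart relative to the spread within each, with means of 43.4 ± 0.990 FPKM in KO and 28.3 ± 0.721 FPKM in WT (SD, n = 2 each), a 1.54-fold difference resting on about 1577 to 2423 fragments a library. The log2 change was 0.60 ± 0.13 (SE, 95% interval 0.26 to 0.94). Its rank by p was 262 of 13281 genes, and after adjustment over all of them it did not pass (adjusted p = 0.296, limma). The gene (ENSMUSG00000040732) lies on GRCm38 chromosome 16, 95359169 to 95586593, minus strand.

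Fli1, the ETS gene most closely related to Erg, was nearly level over the 4 libraries. It was at 26.11 and 26.99 FPKM in KO libraries, against 26.21 and 26.40 FPKM in WT libraries (log2 change 0.01 ± 0.13, SE, 95% interval -0.32 to 0.35, limma). The ratio of Erg to Fli1 within a library was 1.69 and 1.58 in KO 1 and KO 2, against 1.10 and 1.05 in WT 1 and WT 2. Fev, a more distant ETS relative, was listed at 0 in all 4 libraries. The ratio of Erg to Fli1 does not depend on how a library is scaled, and it was not tested across all gene pairs. Scaling the libraries to B-lineage genes gave an Erg change of 1.26, which is 0.70 above the median of all genes in that fit.

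Markers of other cell types were examined beside Erg. Of 7 endothelial markers, Emcn stayed at or below 0.11 FPKM in every library, and the list summed to 23.3 and 19.1 FPKM in KO libraries, against 22.8 and 24.3 FPKM in WT libraries. Cdh5, the endothelial cadherin, was at 2.87 and 3.32 FPKM in KO libraries, against 1.43 and 1.77 FPKM in WT libraries. Pecam1, an adhesion molecule also made by leukocytes, was the largest term of the sum and stood on the other side, at 14.57 and 9.74 FPKM in KO libraries, against 15.5 and 18 FPKM in WT libraries. Without it the list summed to 8.69 and 9.34 FPKM in KO libraries, against 7.27 and 6.30 FPKM in WT libraries. Of 11 megakaryocyte markers 4 were tested. All 4 changes were below 0, as were 61.7% of all changes, and KO and WT libraries overlapped for each of the 4. The 11 markers summed to 12.2 and 21.8 FPKM in KO libraries, against 22.2 and 13.3 FPKM in WT libraries. Of 8 markers of plasmacytoid dendritic cells, 5 lay above and 2 below both WT libraries in both KO libraries, and of 20 neutrophil markers 17 lay above, where 19.7% of all genes lay above and 31.7% below. The neutrophil list had a median of 0.47 in KO 1 and 1.50 in KO 2 over the WT mean on the log2 scale. The plasmacytoid dendritic cell list had medians of 0.20 and 0.60. Within that list Cox6a2 differed by 1.12 in both KO libraries and Pacsin1 by 0.68 and 0.67. The other markers above both WT libraries differed less evenly in KO 1 and KO 2. Siglech differed by 0.32 and 0.69, Ccr9 by 0.22 and 0.62, and Klk1 by 0.17 and 0.58. Tcf4 was nearly level, at 0.07 and -0.01, and Cd209d and Spib were the markers below both WT libraries. The Erg differences were 0.62 in KO 1 and 0.58 in KO 2. The part of other cells in the Erg difference was not tested.

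Myb, the factor that in mice is required for pro-B cells and supports Il7r expression, was lower, chiefly in KO 2. It stood at 73.35 and 43.31 FPKM in KO 1 and KO 2, against 75.67 and 84.57 FPKM in WT 1 and WT 2. KO 1 lay just under WT 1, and KO 2 lay well below the other 3 libraries. Group means were 58.3 ± 21.2 FPKM in KO and 80.1 ± 6.29 FPKM in WT (SD, n = 2 each), with a log2 change of -0.50 ± 0.28 (SE, adjusted p = 0.482, limma). With KO 2 as the lone KO library the change was -0.87 and passed (adjusted p = 0.0493, limma, with 7.1% of all genes passing in that fit), and with KO 1 alone it was -0.12 (adjusted p = 0.621). Scaling to B-lineage genes turned its sign, to 0.16 where the median of all genes was 0.57.

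Il7r, the interleukin 7 receptor gene, was at 53.41 and 23.20 FPKM in KO libraries, against 57.30 and 68.82 FPKM in WT libraries (adjusted p = 0.452, limma), also lowest in KO 2. Among the paralogues of Myb, Mybl2, a gene of dividing cells, was at 28.68 and 21.96 FPKM in KO libraries, against 27.93 and 29.26 FPKM in WT libraries. Mybl1 was at 2.68 and 2.15 FPKM in KO libraries, against 3.21 and 2.98 FPKM in WT libraries. Neither passed (adjusted p = 0.632 for Mybl2 and 0.527 for Mybl1, limma).

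Sox4 and Lef1 encode HMG-box factors, and in both genes the KO libraries lay on opposite sides of the WT libraries. Sox4, needed for pro-B cells in mice, was at 39.97 and 15.60 FPKM in KO 1 and KO 2, against 30.24 and 36.28 FPKM in WT 1 and WT 2. KO 1 was the highest of the 4 libraries and KO 2 the lowest. The log2 change of -0.39 ± 0.44 (SE) did not pass (adjusted p = 0.674, limma), and its 95% interval ran from -1.50 to 0.73. It was -1.04 with KO 2 alone (adjusted p = 0.0529) and 0.26 with KO 1 alone (adjusted p = 0.474).

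Lef1, a DNA-binding partner of β-catenin in Wnt signalling that promotes survival and division of mouse pro-B cells, was at 18.53 and 9.78 FPKM in KO 1 and KO 2, against 16.08 and 15.02 FPKM in WT 1 and WT 2. KO 1 was again highest and KO 2 lowest, and the log2 change was -0.19 ± 0.30 (SE, adjusted p = 0.757, limma). It was -0.62 with KO 2 alone (adjusted p = 0.0568) and 0.24 with KO 1 alone (adjusted p = 0.390). Scaling to B-lineage genes turned the sign of both, to 0.47 for Lef1 and 0.27 for Sox4, below the median of all genes in that fit.

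Tcf7, the closest relative of Lef1, was at 9.26 and 6.27 FPKM in KO libraries, against 6.10 and 5.66 FPKM in WT libraries (log2 change 0.33 ± 0.21, SE, adjusted p = 0.515, limma). The ratio of Lef1 to Tcf7 was 2.001 and 1.56 in KO 1 and KO 2, against 2.64 and 2.65 in WT 1 and WT 2. Tcf7l2 was at 1.36 and 1.33 FPKM in KO libraries, against 1.58 and 1.39 FPKM in WT libraries, and Tcf7l1 was at most 0.45 FPKM. For Sox4, the relative Sox12 was at 6.32 and 4.04 FPKM in KO libraries, against 6.13 and 4.86 FPKM in WT libraries, and Sox11 was at 0.11 and 0.02 FPKM in KO libraries and listed at 0 in WT libraries.

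**Figure D3:**
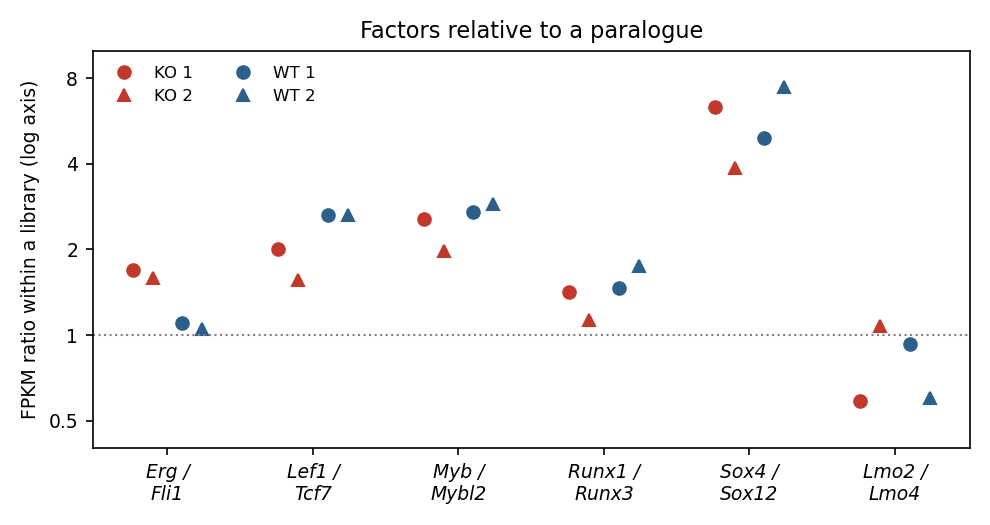
FPKM ratio of a factor to a paralogue within each library, on a log axis, for KO 1 and KO 2 (red) and WT 1 and WT 2 (blue), with a dotted line at 1. Erg to Fli1 is 1.69 and 1.58 in KO libraries against 1.10 and 1.05 in WT libraries, and Lef1 to Tcf7 is 2.001 and 1.56 against 2.64 and 2.65.

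Targets of Wnt signalling through LEF and TCF factors were mostly near the floor. Of 12 listed, 5 were tested and none passed. Lgr5, a receptor for R-spondins, was at 6.67 and 2.87 FPKM in KO libraries, against 9.34 and 9.79 FPKM in WT libraries (log2 change -0.96 ± 0.34, SE, adjusted p = 0.381, limma). Axin2, a feedback inhibitor of the pathway, was at 1.32 and 0.78 FPKM in KO libraries, against 1.10 and 1.05 FPKM in WT libraries. Ccnd1, which encodes cyclin D1, was at 3.98 and 5.81 FPKM in KO libraries, against 3.55 and 3.30 FPKM in WT libraries, and Nkd2, another inhibitor, at 1.84 and 1.30 FPKM against 1.27 and 1.35 FPKM. Of the 12, 6 were below 1 FPKM in every library, and Sp5 was listed at 0 in all 4.

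Runx1 and Bcl11a had group means that were close to each other. Runx1, the DNA-binding subunit of core binding factor, was at 12.01 and 9.39 FPKM in KO 1 and KO 2, against 9.72 and 10.90 FPKM in WT 1 and WT 2. Its log2 change was 0.04 ± 0.17 (SE, 95% interval -0.40 to 0.48, adjusted p = 0.911, limma). Bcl11a, a zinc finger repressor required for lymphoid development in mice, was at 12.25 and 8.83 FPKM in KO libraries, against 10.33 and 10.62 FPKM in WT libraries, with a log2 change of -0.01 ± 0.19 (SE, 95% interval -0.49 to 0.47, adjusted p = 0.985, limma). In both genes KO 1 was the highest of the 4 libraries and KO 2 the lowest. Their signs are not settled by these libraries: that of Runx1 turned without KO 1 (-0.12) and without WT 1 (-0.03), and that of Bcl11a without KO 2 (0.21) and without WT 2 (0.01).

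The relatives of Runx1 stood higher in both KO libraries. Runx2 was at 7.30 and 12.58 FPKM in KO libraries, against 5.74 and 5.19 FPKM in WT libraries (log2 change 0.72 ± 0.26, SE, adjusted p = 0.387, limma). Runx3 was at 8.47 and 8.33 FPKM in KO libraries, against 6.65 and 6.25 FPKM in WT libraries (log2 change 0.34 ± 0.14, SE, adjusted p = 0.410). Neither passed. Runx2 is also expressed by plasmacytoid dendritic cells. Of their 8 markers, 5 lay above and 2 below both WT libraries in both KO libraries, where 19.7% of all genes lay above and 31.7% below. Among the 5 was Siglech, at 30.72 and 40.25 FPKM in KO libraries, against 25.55 and 23.46 FPKM in WT libraries. Below both were Cd209d, at 3.64 and 4.32 FPKM in KO libraries, against 4.82 and 5.17 FPKM in WT libraries, and Spib, which B cells express too. Over the WT mean on the log2 scale, Runx2 differed by 0.36 in KO 1 and 1.07 in KO 2. The medians were 0.20 and 0.60 for the 8 plasmacytoid dendritic cell markers, and 0.47 and 1.50 for 20 neutrophil markers. The part of these cells in the Runx2 values was not tested. Cbfb, which encodes the shared partner subunit, was at 67.41 and 52.06 FPKM in KO libraries, against 73.65 and 73.39 FPKM in WT libraries. Bcl11b, the T cell relative of Bcl11a, was at most 0.26 FPKM in any library.

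Across the 7 tested factors, 5 had 1 KO library above and the other below both WT libraries, against 17.9% of all genes tested. In 4 of them (Lef1, Sox4, Runx1 and Bcl11a) KO 1 was the high library, against 13.7% of all genes. The difference between KO 1 and KO 2 exceeded that between WT 1 and WT 2 in 6 of the 7 factors, against 73.5% of genes. The log2 difference of KO 2 minus KO 1 was -1.30 for Sox4, -0.86 for Lef1, -0.75 for Myb, -0.43 for Bcl11a, -0.32 for Runx1, -0.05 for Erg and 0.67 for Lmo2. The median of the same difference was -1.01 over 17 B-lineage genes, -0.76 over 10 pro-B genes, 1.00 over 20 neutrophil markers and 0.75 over 11 erythroid markers. Whether the share of B-lineage cells sets the values of Sox4, Lef1 and Myb in KO 2 was not tested.

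**Figure D4:**
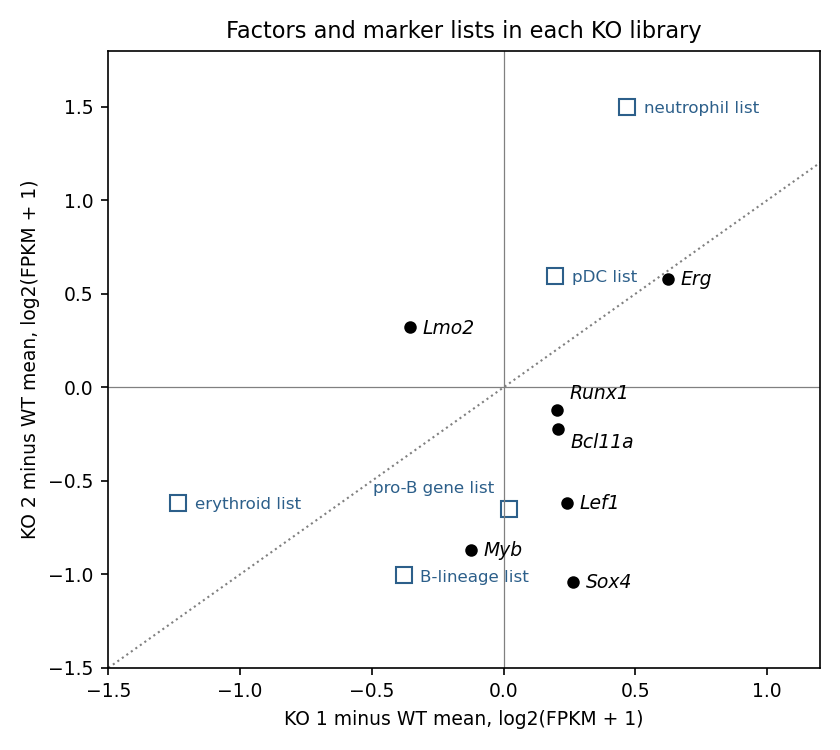
Difference from the WT mean in log2(FPKM + 1), KO 1 on the x axis and KO 2 on the y axis, for the 7 tested factors (black) and the medians of marker lists (open squares), with a dotted line of equality. Erg lies on the line at 0.62 and 0.58, while Sox4, at 0.26 in KO 1 and -1.04 in KO 2, lies far below it, as do Lef1 and Myb.

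Among the B cell genes that these factors act with, KO 2 was again the lowest library in several. Pax5, the commitment factor, was at 90.21 and 42.91 FPKM in KO 1 and KO 2, against 86.51 and 102.41 FPKM in WT 1 and WT 2, and Rag1, the recombinase gene, at 68.02 and 35.27 FPKM against 49.79 and 54.84 FPKM. The ratio of Myb to Pax5 within a library was 0.813 and 1.01 in KO libraries, against 0.875 and 0.826 in WT libraries, and that of Sox4 to Pax5 was 0.443 and 0.364 against 0.350 and 0.354. The ratio of Lef1 to Pax5 was 0.205 and 0.228 in KO libraries, against 0.186 and 0.147 in WT libraries. The ratio of Erg to Pax5 was 0.489 and 0.996 in KO libraries, against 0.333 and 0.271 in WT libraries. Of 10 pro-B genes none passed and 7 changes were below 0, and Vpreb2, a surrogate light chain gene, was the sole one with both KO libraries above both WT libraries (19.7% of all genes), at 75.69 and 53.49 FPKM against 52.53 and 41.49 FPKM.

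Lmo2, the adaptor that bridges TAL1 or LYL1, LDB1 and GATA factors, split the libraries in the other direction. It was at 31.22 and 50.43 FPKM in KO 1 and KO 2, against 48.06 and 33.55 FPKM in WT 1 and WT 2. KO 2 and WT 1 were high and KO 1 and WT 2 were low, so the groups overlapped and the means were nearly equal, at 40.8 ± 13.6 FPKM in KO and 40.8 ± 10.3 FPKM in WT (SD, n = 2 each). The log2 change was -0.02 ± 0.30 (SE, 95% interval -0.77 to 0.74, adjusted p = 0.980, limma). Lmo2 lies on chromosome 2, 103957986 to 103981878, plus strand.

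Its partners did not all vary with it. Tal1 was at 7.32 and 10.43 FPKM in KO libraries, against 15.81 and 9.60 FPKM in WT libraries, and Gata1, the erythroid GATA factor, at 6.68 and 10.60 FPKM against 18.51 and 12.07 FPKM. Lyl1, the relative of Tal1 used in lymphoid progenitors, was at 74.74 and 64.47 FPKM in KO libraries, against 59.95 and 56.48 FPKM in WT libraries, and Ldb1 was at 41.50 and 32.78 FPKM against 44.16 and 39.14 FPKM. All 11 erythroid markers were detected, with sums of 389.8 and 683 FPKM in KO libraries, against 1366 and 832 FPKM in WT libraries, and 9 of the 11 were below both WT libraries in both KO libraries, against 31.7% of all genes. The erythroid sum and Lmo2 were both higher in KO 2 than in KO 1 and in WT 1 than in WT 2, but KO 2 exceeded WT 2 for Lmo2 and not for the erythroid sum. The transferrin receptor gene Tfrc, one of the 11, ran the other way within each group. Of 8 monocyte markers, 4 lay above and 0 below both WT libraries in both KO libraries, where 19.7% of all genes lay above and 31.7% below. On the log2 scale their median over the WT mean was -0.05 in KO 1 and 0.99 in KO 2, and 0.04 for WT 2 minus WT 1. The part of erythroid or myeloid cells in the Lmo2 values was not tested.

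**Figure D5:**
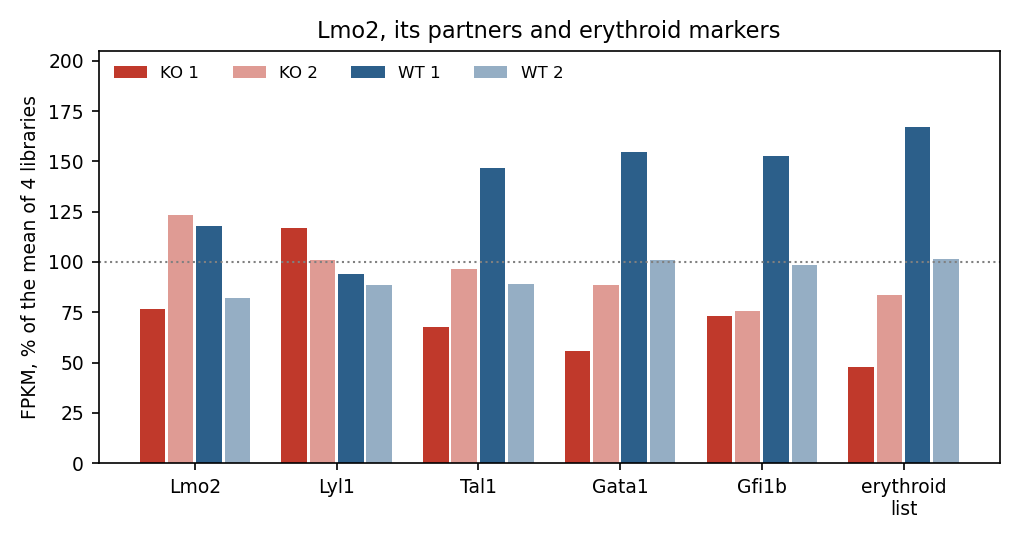
FPKM of Lmo2, Lyl1, Tal1, Gata1, Gfi1b and the summed erythroid list in each library as a percentage of the mean of the 4 libraries (dotted line at 100), KO 1 and KO 2 in red and WT 1 and WT 2 in blue. Lmo2 is at 76.5% and 124% in KO 1 and KO 2 and 118% and 82.2% in WT 1 and WT 2, while the erythroid list is at 47.7% and 83.6% in KO and 167% and 102% in WT.

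The LIM-only relatives of Lmo2 were also measured. Lmo4 was the most abundant, at 53.13 and 46.94 FPKM in KO libraries, against 51.59 and 55.89 FPKM in WT libraries. Lmo1 was at 4.31 and 9.71 FPKM in KO libraries, against 3.71 and 3.45 FPKM in WT libraries (log2 change 0.72 ± 0.35, SE, adjusted p = 0.450, limma), with KO 2 well above the rest. Lmo3 was at most 0.11 FPKM.

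Meis1 and Hoxa9, homeobox genes of stem cells and myeloid progenitors, were close to the floor and were not tested in the main comparison. Meis1 was at 0.71 and 0.49 FPKM in KO libraries, against 0.61 and 0.57 FPKM in WT libraries, which is about 118 and 78 fragments against 102 and 99. Hoxa9 was at 0.61 and 0.72 FPKM in KO libraries, against 0.68 and 0.31 FPKM in WT libraries, about 54 and 61 fragments against 60 and 28. The exact 95% Poisson interval, which covers counting error only, was 46.7 to 78.4 fragments in KO 2 and 18.6 to 40.5 in WT 2 for Hoxa9. The groups overlapped for both genes. In a fit with no filter on low values, the log2 change was 0.01 ± 0.13 for Meis1 (adjusted p = 1, limma) and 0.17 ± 0.17 for Hoxa9 (adjusted p = 0.720).

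Of the other 10 genes of the Hoxa cluster on chromosome 6, 9 were below the filter, and Hoxa13 was listed at 0 in all 4 libraries. Hoxa7 was the exception, at 1.89 FPKM in both KO libraries, against 1.08 and 1.27 FPKM in WT libraries. Hoxa5 was at 0.81 and 0.99 FPKM in KO libraries, against 0.51 and 0.84 FPKM in WT libraries, and the others, Hoxa10 among them, were at most 0.79 FPKM. The Meis relatives Meis2 and Meis3 were at most 0.01 and 0.63 FPKM. Pbx2, which encodes a homeodomain partner of these proteins, was at 30.37 and 32.72 FPKM in KO libraries, against 24.60 and 23.01 FPKM in WT libraries (log2 change 0.39 ± 0.14, SE, adjusted p = 0.378, limma). Both KO libraries were above both WT libraries, and the difference did not pass.

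Of 22 partner genes of the 9 factors, 20 were tested and none passed. Among them 7 lay above and 6 below both WT libraries in both KO libraries, where 51.4% of all genes lay above or below, with a median log2 change of -0.12. Tle3, a Groucho corepressor recruited by LEF and TCF factors, was at 20.77 and 19.73 FPKM in KO libraries, against 13.86 and 15.00 FPKM in WT libraries (log2 change 0.46 ± 0.13, SE, adjusted p = 0.351, limma). Tle5, a short Groucho relative, was at 87.50 and 101.47 FPKM in KO libraries, against 73.72 and 59.71 FPKM in WT libraries. Ctnnb1, which encodes β-catenin, was at 69.18 and 59.58 FPKM in KO libraries, against 78.30 and 77.26 FPKM in WT libraries. Hdac2, a deacetylase of corepressor complexes, was at 26.06 and 20.93 FPKM in KO libraries, against 29.75 and 29.84 FPKM in WT libraries.

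Other transcription factors of progenitors were more often higher than lower in KO libraries, and none passed. Of 25 listed, which include Tal1, Lyl1, Fli1 and Tcf7 above, 19 were tested, 14 changes were above 0 and the median was 0.26, against -0.09 for all genes. There were 10 above and 2 below both WT libraries in both KO libraries, where 19.7% of all genes lay above and 31.7% below. Spi1, which encodes PU.1, was at 72.59 and 109.53 FPKM in KO libraries, against 56.12 and 48.98 FPKM in WT libraries. Nfe2, a factor of megakaryocytes, erythroid and myeloid cells, was at 33.76 and 60.55 FPKM in KO libraries, against 26.79 and 23.95 FPKM in WT libraries. Hhex, a homeobox gene of lymphoid progenitors, was at 16.47 and 14.61 FPKM in KO libraries, against 12.00 and 11.81 FPKM in WT libraries. Gfi1b, a repressor in erythroid and megakaryocyte cells, was at 10.87 and 11.24 FPKM in KO libraries, against 22.79 and 14.71 FPKM in WT libraries. Adjusted p-values in limma were 0.370 for Spi1, 0.385 for Nfe2, 0.400 for Hhex and 0.372 for Gfi1b. Spi1, Nfe2 and Cebpa (11.95 and 20.75 FPKM in KO libraries, against 11.07 and 9.40 FPKM in WT libraries) are also expressed by myeloid cells, whose neutrophil markers were higher in the same libraries; their part in these values was not tested.

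Genes downstream of HOXA9, MEIS1 and MYB and receptors of progenitors gave no call. Of 15 such targets 14 were tested, and their median log2 change was 0.03. These targets include Sox4, Meis1, Myb and Lmo2, so the median is not independent of the factors themselves. Of 12 progenitor surface genes 9 were tested, with a median of 0.08. Flt3, a cytokine receptor of early progenitors and on both lists, was at 3.45 and 4.83 FPKM in KO libraries, against 2.87 and 2.16 FPKM in WT libraries (log2 change 0.54 ± 0.22, SE, adjusted p = 0.408, limma). Pim1, a kinase gene, was at 83.17 and 70.53 FPKM in KO libraries, against 49.09 and 63.96 FPKM in WT libraries (adjusted p = 0.435). Cd34 was at 1.68 and 2.07 FPKM in KO libraries, against 1.72 FPKM in both WT libraries, and Kit at 6.09 and 8.73 FPKM against 6.38 and 5.24 FPKM. Ly6a, which encodes Sca-1 and responds to interferon, was at 12.00 and 22.55 FPKM in KO libraries, against 11.82 and 10.82 FPKM in WT libraries. Cd93, a surface protein of early B cells, was at 48.99 and 31.79 FPKM in KO libraries, against 50.87 and 53.22 FPKM in WT libraries.

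The genes most like each factor over the 4 libraries were sought among 7585 named genes, immunoglobulin and T cell receptor segments aside, that averaged 5 FPKM or more over the 4 libraries, by the Euclidean distance between log2 profiles centred on their own mean. Nearest to Erg were Mib2 (distance 0.04), Bst1 (0.07) and Zfand2b (0.10). Bst1, which encodes the surface enzyme CD157, stood at 28.66 and 28.99 FPKM in KO libraries, against 18.41 and 18.88 FPKM in WT libraries. Nearest to Lmo2 were the cathepsin genes Ctsb (0.02) and Ctss (0.04), with Ctsb at 68.96 and 109.32 FPKM in KO libraries, against 105.10 and 72.95 FPKM in WT libraries. Nearest to Lef1 were AU020206, Srm and Pus1, to Sox4 Il12a, Emid1 and Epha2, and to Myb Rtn4ip1, Desi1 and Pgm2l1. Among the factors themselves Runx1 and Bcl11a were closest to each other (0.12) and Sox4 and Lmo2 farthest apart (1.54). With 4 libraries such distances are a description and carry no test.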

How the data were processed

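RNA sequencing libraries of sorted bone marrow B cells were grouped by title as KO or WT. The authors deposited, per the file headers, FPKM per Ensembl gene for each library, rounded to 2 decimals. The build in the submitters' processing notes is mm9, and no aligner or counter is named there. Positions here are on GRCm38 and were not converted from that build. Symbols, positions and union exon lengths came from GENCODE M21 (GRCm38) for 55480 identifiers, and promoter sequences from RefSeq (GRCm38.p6) for 8 of the 9 factors. FPKM times length fell on whole fragments, within 0.15, for 99.5% to 99.6% of the low values checked (30% by chance), which gave the depth and fragment estimates. They cover counting error only. No library copied another (chi-square per degree of freedom 7.74 or more for every pair).

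Because FPKM are not counts, limma 3.58.1 in R 4.3.3 was run on log2(FPKM + 1), with its prior variance following mean expression, the 4 libraries, no covariate, genes averaging 1 FPKM or more in KO or in WT, and Benjamini-Hochberg adjustment. This scale understates changes of low genes. With 2 against 2 libraries the smallest p of an exact permutation test is 0.333. The test was also run on simulated data with independent noise, its spread taken from the WT libraries alone. That simulation left out the wider spread between the KO libraries, so it cannot show how the test performs on these data. The factors and lists were chosen with earlier results of these data known. Every factor was reported, its paralogues and the Hoxa genes by value or range, and of each other list of the pathway up to 6 tested genes with the smallest p were eligible to be named. Genes named beyond these (the cell type markers S100a9, Emcn, Cdh5, Pecam1, Siglech, Cox6a2, Pacsin1, Ccr9, Klk1, Tcf4, Cd209d, Spib, Gata1 and Tfrc, and Ldb1, Cbfb, Lyl1, Tal1, Sp5, Rag1, Cd34 and Kit) were chosen after their values were seen. Some listed genes are not reported here. There were 14 alternative settings.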

Additional observations from a re-analysis of the deposited data

How the results depend on the processing

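No factor passed in 13 of 14 alternatives. The exception was the fit without KO 1, where 1 did, Myb (log2 change -0.87), so the count of factors called ran from 0 to 1 when a library was left out. The count of factors with groups that do not overlap, 2 in the main fit, was 5 with B-lineage scaling and ran from 2 to 7 when a library was left out. The share of all genes without overlap was not computed for those fits. A lone library against 2 overlaps less readily whatever the gene, and B-lineage scaling shifts all genes of a library together. Neither rise is therefore read as a result about the factors. Over all genes, 27 passed (0 of them higher), against 15 with a pseudocount of 0.1, 0 with no filter on low values (2257 at an unadjusted p under 0.05), 8 with voom on estimated fragments, 346 with B-lineage scaling (262 of them higher) and 0 to 948 when a library was left out (0 without KO 2, 14 without WT 1, 948 without KO 1). The replicate block gave 68 calls and no factor among them. Libraries with the same number did not deviate together (correlation of deviations -0.149 over 13281 genes), so the numbers were not taken as pairs. The crossed pairing, chosen after seeing the data, gave 213 calls.

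Erg kept its direction in all 14 alternatives, with log2 changes from 0.58 to 1.26 and adjusted p from 0.0530 to 0.980 (limma). B-lineage scaling, which moves the median of all genes by 0.66, reversed Myb (0.16), Lef1 (0.47), Sox4 (0.27), Bcl11a (0.65) and Lmo2 (0.64). Bcl11a and Lmo2 also turned with quantile normalization (0.0559 and 0.0557), median centring (0.0607 and 0.0521) and rescaling without the neutrophil list (0.0325 and 0.0272), which move the median of all genes by 0.0635, 0.0684 and 0.0374. Leaving out a library gave ranges of -0.62 to 0.24 for Lef1, -1.04 to 0.26 for Sox4, -0.87 to -0.12 for Myb, -0.12 to 0.20 for Runx1, -0.22 to 0.21 for Bcl11a and -0.35 to 0.32 for Lmo2. With 3 libraries the lone sample of a group is assumed to vary like the others. Median centring, rescaling and B-lineage scaling shift all genes of a library together. Without a KO library, the change is that of the KO library kept minus the WT mean. For Lef1, Sox4, Runx1, Bcl11a and Lmo2, KO 1 and KO 2 lay on opposite sides of that mean, so leaving out 1 of them turned the sign. The cause of the remaining reversals was not tested. Depth limits Meis1 and Hoxa9, which rest on at most 118 fragments a library.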
